A study of Mus musculus with 2 samples.

Results

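The integrated stress response was described here by 10 genes, 5 transcription factors (Atf3, Atf4, Atf5, Ddit3 and Cebpb) and 5 effectors (Trib3, Chac1, Sesn2, Ddit4 and Ppp1r15a). They were found by gene symbol among the 25509 genes of the deposited count table, and all 10 were present with at least 10 counts. The genes were picked with earlier results of these same libraries known, so their differences are given as a description, without a test. Poly(A) RNA of soft-tissue sarcoma cells was sequenced after silencing of circCsnk1g3, a circular RNA of the Csnk1g3 gene, in 1 library (shcircCsnk1g3) and from cells with a control hairpin in the other (shCTR). Cells of both libraries were on a C57BL/6 background and derived from mesenchymal stem cells that were p53-/- and overexpressed Ccne1. They had formed tumors under the skin of primary mice, then foci in the lungs of secondary recipients, and were isolated from those foci before transduction. Hairpins were delivered in a lentiviral vector with puromycin selection and Ccne1 in a retroviral vector. With 1 library per condition, an effect of the hairpin and a difference between cultures or preparations cannot be told apart, and in such bulk RNA neither can a difference in cell makeup and a difference in RNA per cell.

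In the integrated stress response, kinases that sense misfolded protein, amino acid lack, double-stranded RNA or haem shortage phosphorylate the initiation factor eIF2. General translation then slows, while upstream reading frames let a few mRNAs such as that of ATF4 be translated more. ATF4 and its partners of the C/EBP family bind composite C/EBP-ATF elements and switch on genes for amino acid supply, further transcription factors such as CHOP (encoded by Ddit3) and ATF3, and the phosphatase subunit GADD34 (encoded by Ppp1r15a) that reverses the eIF2 phosphorylation. Because ATF4 is regulated mostly at translation, its mRNA level is only a partial readout of its activity, and no protein was measured in these libraries.

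The promoter letters of 3 genes are shown because they hold matches to elements of this pathway. For each, the 250 bases before the transcription start are given as RefSeq places it (GRCm38.p6), from 5′ to 3′ on the gene's own strand, with the matches in capitals. Atf3 lies on the minus strand and its window is chr1:191183334-191183583, inside the annotated gene because a longer transcript starts further upstream. Chac1 lies on the plus strand, with the window chr2:119350992-119351241. Ppp1r15a lies on the minus strand, with the window chr7:45526269-45526518.
Atf3: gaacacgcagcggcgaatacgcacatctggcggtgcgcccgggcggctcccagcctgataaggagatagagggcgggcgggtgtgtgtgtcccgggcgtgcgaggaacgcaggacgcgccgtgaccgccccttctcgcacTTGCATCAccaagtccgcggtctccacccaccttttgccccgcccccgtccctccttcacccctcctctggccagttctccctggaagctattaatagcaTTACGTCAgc
Chac1: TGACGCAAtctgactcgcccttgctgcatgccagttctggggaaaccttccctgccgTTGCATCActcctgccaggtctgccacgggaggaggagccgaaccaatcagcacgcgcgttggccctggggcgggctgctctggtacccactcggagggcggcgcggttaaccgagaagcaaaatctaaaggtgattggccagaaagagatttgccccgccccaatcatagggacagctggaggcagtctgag
Ppp1r15a: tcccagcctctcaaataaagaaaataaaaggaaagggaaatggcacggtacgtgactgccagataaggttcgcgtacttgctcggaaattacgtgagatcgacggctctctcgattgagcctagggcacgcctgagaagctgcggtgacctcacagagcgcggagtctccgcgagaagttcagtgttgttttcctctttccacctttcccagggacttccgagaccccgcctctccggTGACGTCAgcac
The core of the C/EBP-ATF element was searched on both strands as TGATGNAA, where N is any base. It was present in the windows of 2 of the 10 genes, Atf3 and Chac1, and in 3.45% of the 32851 promoter windows searched. In both windows the matched letters were TTGCATCA, which is the motif read on the opposite strand, at 110 to 103 bases before the start in Atf3 and at 193 to 186 bases in Chac1. The same 2 windows held a match to the variant TGACGNAA, which was found in 1.39% of all windows. The cyclic AMP response element, TGACGTCA, was in the window of Ppp1r15a at 12 to 5 bases before the start and in 1.55% of all windows. An exact match to the ER stress response element, searched as CCAAT and CCACG separated by any 9 bases, was in 0.113% of all windows. It was in none of the 11 windows of the 10 genes (Atf5 has 2). The Ddit3 window, not shown, holds CCAAT and GCACG with that spacing on the opposite strand, 1 letter from the searched form. These motifs can share bases with one another but did not in the windows shown. Only exact matches in the 250 bases before each RefSeq start were counted. A gene without a match can therefore hold a variant, or an element outside the window. Such matches are descriptions of letters and not of binding.

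The libraries held 38792143 counts (shcircCsnk1g3) and 42709996 counts (shCTR), and the 12941 genes that reached 10 counts in either library were compared. Levels are library-scaled counts (CPM) after TMM normalization, which corrects for library size and composition, and the log2 fold change is that of CPM with 2 prior counts added. Positive values mean a higher level with shcircCsnk1g3, and the range after a value is its 95% exact (Clopper-Pearson) interval, which covers counting error only and compares these 2 libraries, not the conditions. Over all genes compared, the median log2 fold change was 0.00, and the middle 50% ran from -0.16 to 0.16. Csnk1g3 itself had 2159 counts with shcircCsnk1g3 and 2411 with shCTR, a log2 fold change of -0.05 (-0.14 to 0.03). These counts stand for the linear mRNA, since a circular RNA has no poly(A) tail. Trp53, which encodes p53, was counted at 3841 and 4334 in these p53-/- cells, and a count per gene does not say which exons the reads came from. Ccne1, the overexpressed cyclin E1 gene, had 893 and 963 counts, or 22.8 CPM in both libraries. Mesenchymal markers summed to 13881 CPM with shcircCsnk1g3 and 14592 CPM with shCTR over the whole list of 11 genes, of which Thy1 was at or under 3 counts in both libraries. Their log2 fold changes ran from -0.69 (-0.77 to -0.61) for Ly6a, a surface antigen, to 0.37 (0.35 to 0.39) for Col3a1, a fibrillar collagen. Leukocyte markers summed to 4.16 and 6.91 CPM over 10 genes, with Ptprc, Cd3e, Itgam, Adgre1 and Lyz2 at or under 3 counts in both libraries. The sum was carried by Cd68, with 87 counts with shcircCsnk1g3 and 155 with shCTR (log2 fold change -0.71, -1.12 to -0.34), and Laptm5, with 45 and 102 counts (-1.04, -1.61 to -0.55), which was picked out after its value was seen. The part of these marker differences in the values of the 10 genes was not tested. Endothelial markers summed to 0.485 and 0.758 CPM and lung epithelial markers to 2.78 and 1.70 CPM. The lung epithelial sum was carried by Krt8, with 92 and 46 counts (1.07, 0.58 to 1.65), which was picked out after its value was seen.

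Of the 10 genes, 9 had a higher level with shcircCsnk1g3, as had 50.4% of all genes compared, and 1, Cebpb, had a lower level. Atf3 and Ddit3 were at least 2-fold higher, a size reached by 2.13% of all genes, and none was at least 2-fold lower, a size reached by 2.55%. At 1.5-fold or more, Trib3 and Ppp1r15a joined them, which made 4 genes against a background of 5.39%, and none was 1.5-fold lower, against 6.31%. Of the 10662 genes whose counts summed to 200 or more, to which all 10 belong, 0.563% were at least 2-fold higher and 1.99% at least 1.5-fold higher. Those shares stand for 60 and 212 genes, and in the lower direction the same limits were reached by 79 and 335 genes. The interval lay above 0 for 9 of the genes, as it did for 26.9% of all genes, and below 0 for 1, as it did for 28.2%. Because the genes were picked from this same contrast, nothing is read from these counts. The median log2 fold change was 0.36 over the 10 genes, 0.50 over the transcription factors and 0.23 over the effectors.

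**Figure D1:**
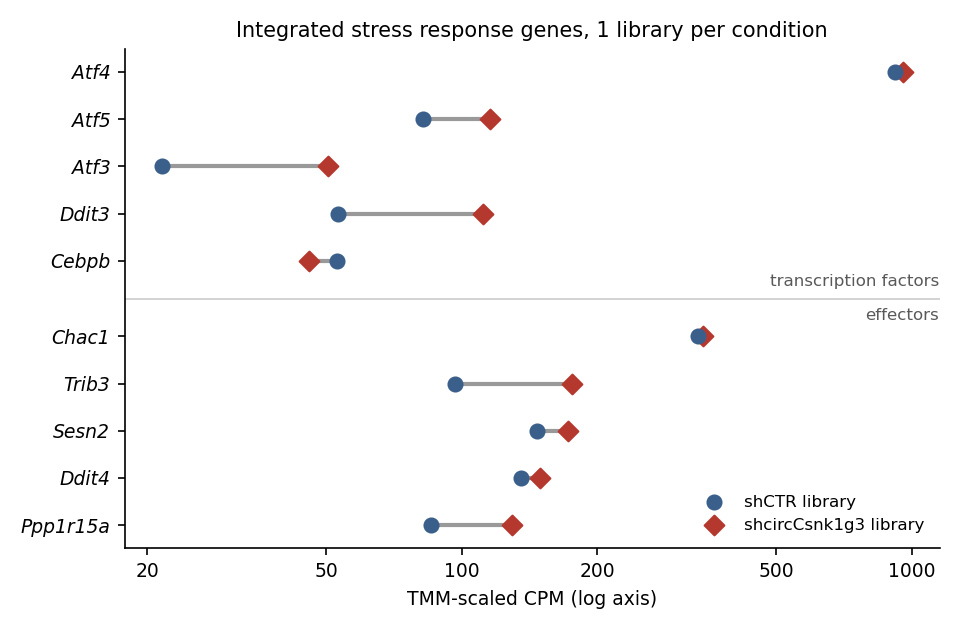
Level of each gene in the shCTR library (circles) and the shcircCsnk1g3 library (diamonds), in TMM-scaled CPM on a log axis, with 1 library per condition and no error bars. The longest lines are those of Atf3, Ddit3 and Trib3, the symbols of Atf4 and Chac1 nearly coincide, and Cebpb is the gene whose diamond is on the left.

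Among the transcription factors, Atf3 had the widest difference on the log2 scale and Atf4, the factor at the head of the pathway, had almost none. Atf4 lies at chr15:80255184-80257541 on the plus strand (GRCm38, GENCODE M21). It was counted 37477 times with shcircCsnk1g3 and 38849 times with shCTR, or 956 and 920 CPM, a log2 fold change of 0.06 (0.04 to 0.08). That is a 1.04-fold difference, and 40.8% of all genes compared had a change at least as far in the higher direction. The Atf4 interval excluded 0 because of its very high count, while the difference itself lay within the middle 50% of all genes. Per kilobase of exon, Atf4 stood at 405 CPM with shcircCsnk1g3 and 390.0 CPM with shCTR, the first place among the 10 genes in both libraries.

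Atf3, a stress-induced factor of the ATF/CREB family downstream of ATF4, lies at chr1:191170296-191218039 on the minus strand. Its counts were 1978 with shcircCsnk1g3 and 911 with shCTR, or 50.4 and 21.6 CPM. The log2 fold change was 1.22 (1.11 to 1.34), a 2.34-fold difference, which placed Atf3 at rank 188 of 12941 genes by upward change. Per kilobase, Atf3 had 23.4 CPM with shcircCsnk1g3 and 10 CPM with shCTR, which remained the lowest level of the 10 genes in both libraries.

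Ddit3 encodes CHOP, the factor that links prolonged stress to cell death, and lies at chr10:127290774-127296288 on the plus strand. It was counted 4375 times with shcircCsnk1g3 and 2242 times with shCTR, or 112 and 53.1 CPM. The log2 fold change of Ddit3 was 1.07 (1.0 to 1.15), or 2.10-fold, at rank 252. The annotation holds a second entry named Ddit3 on the same strand that shares 105 exonic bases with this one, and the gene also shares 68 exonic bases with Mars on the opposite strand. The second Ddit3 entry is not among the genes of the deposited counts, while Mars had 7729 counts with shcircCsnk1g3 and 8176 with shCTR. Whether reads in the shared bases were divided between genes was not tested.

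Atf5, a factor related to ATF4 that is likewise regulated at translation, lies at chr7:44812256-44816658 on the minus strand. It had 4536 counts with shcircCsnk1g3 and 3459 with shCTR, or 116 and 81.9 CPM, a log2 fold change of 0.50 (0.43 to 0.56). Atf5 shares 82 exonic bases, 4.1% of its length, with Il4i1 and Nup62 on the opposite strand, and Il4i1 had 6862 and 7837 counts. Whether counting used the strand is not known here, so a part of the Atf5 count is uncertain. At 1.41-fold, Atf5 fell just outside the 1.5-fold limit, and Ppp1r15a, at 1.51-fold, just inside it. The corresponding pair at 2-fold was Ddit3, inside at 2.10-fold, and Trib3, outside at 1.81-fold.

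Cebpb encodes a C/EBP factor that pairs with ATF4 and CHOP and also serves inflammatory and differentiation programmes, and lies at chr2:167688915-167690418 on the plus strand. It had 1796 counts with shcircCsnk1g3 and 2238 with shCTR, or 45.8 and 52.98 CPM. The log2 fold change of Cebpb was -0.21 (-0.30 to -0.12), so that its interval lay below 0, opposite to the other 9 genes. Cebpb is a single-exon gene that shares 312 exonic bases, 20.7% of its length, with Tmem189 on the opposite strand, and Tmem189 had 2243 and 2137 counts. The libraries were made with a stranded kit, but whether counting used the strand is not given in the sources used here, so part of the Cebpb count is uncertain.

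Trib3 had the widest difference among the effectors, and the effectors ran from there down to Chac1 with no gene lower in the shcircCsnk1g3 library. Trib3, a pseudokinase that is induced by ATF4 and CHOP and restrains AKT and ATF4 signalling, lies at chr2:152337422-152344032 on the minus strand. Its counts were 6886 with shcircCsnk1g3 and 4091 with shCTR, or 176 and 96.8 CPM. The log2 fold change of Trib3 was 0.86 (0.80 to 0.91), and 2.85% of all genes had at least this upward change.

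Ppp1r15a encodes GADD34, the inducible subunit that directs protein phosphatase 1 to eIF2, and lies at chr7:45522916-45526268 on the minus strand. It was counted 5071 times with shcircCsnk1g3 and 3607 times with shCTR, or 129 and 85.4 CPM, a log2 fold change of 0.60 (0.54 to 0.66). Its constitutive counterpart Ppp1r15b had 7215 and 7123 counts, which gave a log2 fold change of 0.13 (0.08 to 0.17). Within a library, the count of Ppp1r15a per count of Ppp1r15b was 0.703 with shcircCsnk1g3 and 0.506 with shCTR. The ratio of these ratios was 1.39 (1.32 to 1.46), a value that no scaling between libraries can move.

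Sesn2 and Ddit4 both encode stress-induced inhibitors of mTORC1 signalling, and both had modest differences. Sesn2, at chr4:132492032-132510501 on the minus strand, had 6756 counts with shcircCsnk1g3 and 6216 with shCTR, or 172 and 147 CPM, a log2 fold change of 0.23 (0.18 to 0.28). Ddit4, at chr10:59949669-59951834 on the minus strand, had 5841 and 5725 counts, or 149 and 136 CPM, a log2 fold change of 0.14 (0.08 to 0.19). The Sesn2 value lay outside the middle 50% of all genes and the Ddit4 value inside it. Ddit4 is also induced under hypoxia and by glucocorticoids, and Sesn2 by p53 and oxidative stress.

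Chac1, which encodes an enzyme that degrades glutathione and is a known target of the ATF4 and CHOP axis, lies at chr2:119351229-119354381 on the plus strand. It had 13503 counts with shcircCsnk1g3 and 14133 with shCTR, or 344 and 335 CPM, a log2 fold change of 0.04 (0.01 to 0.08). Chac1 and Trib3 are both counted among such targets, and 43.0% of all genes had at least the upward change of Chac1 against 2.85% for Trib3. Chac1 and Atf3, the genes whose promoter windows hold the same TTGCATCA letters, had log2 fold changes of 0.04 and 1.22, so the presence of the match did not go with 1 size of change.

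**Figure D2:**
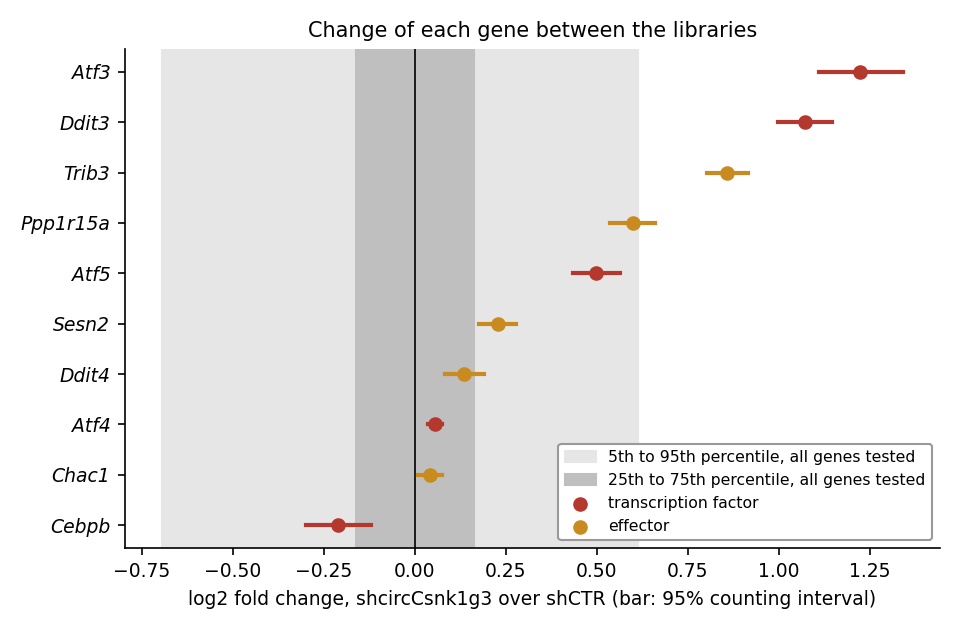
Log2 fold change of each gene, shcircCsnk1g3 over shCTR (points), with its 95% counting interval (bars), transcription factors and effectors in different colours. The grey bands span the 5th to 95th percentile (-0.69 to 0.61) and the 25th to 75th percentile (-0.16 to 0.16) of all 12941 genes, and Atf3, Ddit3 and Trib3 lie beyond the wider band while Ddit4, Atf4 and Chac1 lie within the narrower one.

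Sorted by log2 fold change, the 10 genes ran from Atf3 through Ddit3, Trib3, Ppp1r15a, Atf5, Sesn2, Ddit4, Atf4 and Chac1 to Cebpb. Neighbours in this order differed by more than counting error except Atf4 and Chac1, whose difference was 0.01 (-0.03 to 0.05). The narrowest of the other steps was that from Ddit4 to Atf4, at 0.08 (0.02 to 0.14). No spread between cultures enters these intervals, so the order holds for these 2 libraries only.

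The order of levels within a library differed between the libraries. Per kilobase of exon, Atf4 was followed in the shCTR library by Chac1 at 204 CPM, Ddit4 at 77.2 CPM and Trib3 at 45.6 CPM. Sesn2 and Atf5 came next with overlapping counting intervals, at 42.3 and 41.1 CPM per kilobase. Cebpb held the seventh place at 35.2 CPM per kilobase, ahead of Ddit3 at 31.0 and Ppp1r15a at 29.1, whose intervals overlapped. With shcircCsnk1g3, Chac1 was again next to Atf4, at 210.4 CPM per kilobase, and Ddit4 and Trib3 overlapped at 84.9 and 82.6. Ddit3 then followed directly at 65.1 CPM per kilobase, ahead of Atf5 at 58.0, Sesn2 at 49.6 and Ppp1r15a at 44.0, and Cebpb had moved to the place before Atf3 at 30.5. Of all counts of the 10 genes, Atf4 held 42.5% with shcircCsnk1g3 and 47.7% with shCTR. The summed level of the group was 2250 CPM with shcircCsnk1g3 and 1929 CPM with shCTR.

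**Figure D3:**
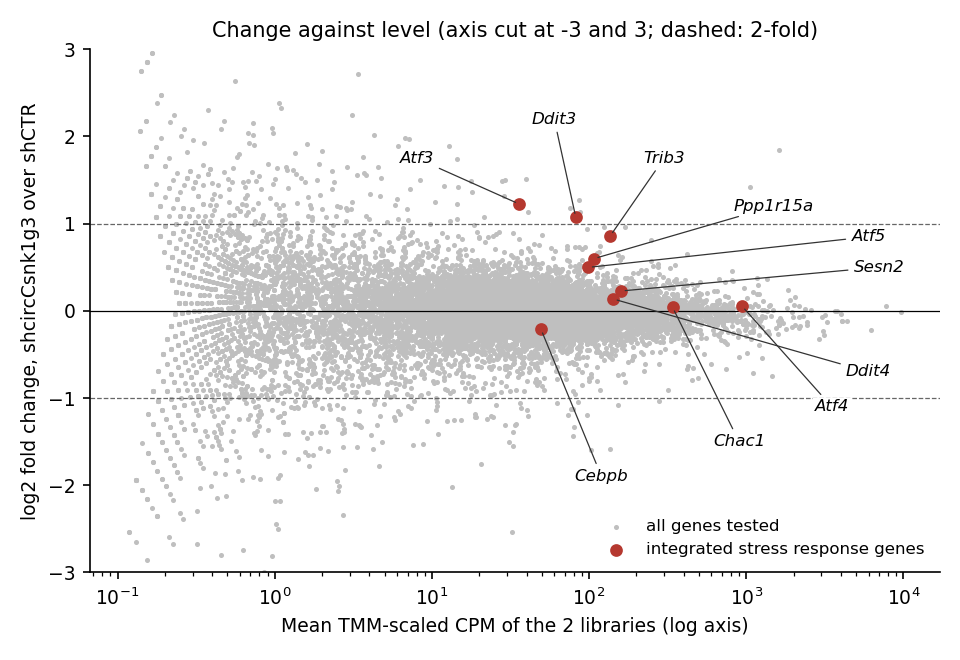
Log2 fold change of every gene compared (grey) against the mean CPM of both libraries on a log axis, with the 10 stress response genes in red and dashed lines at 2-fold. The vertical axis ends at -3 and 3, which leaves 25 genes out of view, and the 10 genes all lie at levels where the grey cloud is narrow, with Atf3 and Ddit3 above the upper dashed line.

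Count ratios within a library need no scaling between libraries and show how the makeup of the response differed. For each count of Atf4 there were 0.0528 counts of Atf3 with shcircCsnk1g3 and 0.0234 with shCTR, a ratio of ratios of 2.25 (2.08 to 2.44). Ddit3 per Atf4 was 0.117 against 0.0577, a ratio of ratios of 2.02 (1.92 to 2.13). Trib3 per Atf4 was 0.184 against 0.105, a ratio of ratios of 1.74 (1.67 to 1.82). These 3 genes therefore stood higher relative to Atf4 in the shcircCsnk1g3 library, but not they alone. Ratios of ratios per Atf4 were 1.46 (1.39 to 1.52) for Ppp1r15a, 1.13 (1.09 to 1.17) for Sesn2 and 1.06 (1.02 to 1.10) for Ddit4. Cebpb per Atf4 went the other way, at 0.832 (0.781 to 0.887). Chac1 per Atf4 was 0.360 against 0.364, with a ratio of ratios of 0.990 (0.964 to 1.02). Counts of Chac1 per count of Trib3 went from 3.45 with shCTR to 1.96 with shcircCsnk1g3, and counts of Ddit3 per count of Cebpb from 1.0 to 2.44. Among the transcription factors, Atf4 per Atf5 was 8.26 with shcircCsnk1g3 and 11.2 with shCTR.

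Upstream of the 10 genes, the mRNAs of the 4 eIF2 kinases did not move as a group. Eif2ak2, which encodes the double-stranded RNA sensor PKR, had 2415 counts with shcircCsnk1g3 and 1929 with shCTR, a log2 fold change of 0.43 (0.34 to 0.52). Eif2ak4, which encodes the amino acid sensor GCN2, had 1693 and 1629 counts, and the log2 fold change was 0.16 (0.06 to 0.26). Eif2ak3, which encodes the ER stress sensor PERK, had 1121 and 1252 counts, which gave a log2 fold change of -0.05 (-0.17 to 0.07). Eif2ak1, which encodes the haem-regulated kinase HRI, had 1773 and 2168 counts, and the log2 fold change was -0.18 (-0.27 to -0.09). Kinase mRNA says nothing of kinase activity, and eIF2 phosphorylation was not measured in these libraries. Over 14 subunits and partners of eIF2, its exchange factor eIF2B and its phosphatase, the median was -0.04 (-0.01 with total-count scaling), 3 intervals lay above 0 and 4 below, shares close to the 26.9% and 28.2% of all genes. The lowest value in that list was -0.29 (-0.37 to -0.21) for Dnajc3, a co-chaperone that inhibits eIF2 kinases, and the highest 0.14 (0.01 to 0.28) for Nck1, an adaptor.

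The paralogs of the effectors had lower log2 fold changes than the stress-induced gene of the same family, although the intervals of Chac1 and Chac2 overlapped. Sesn1 and Sesn3, the sestrins more closely tied to p53 and FOXO factors, had log2 fold changes of -0.36 (-0.53 to -0.19) and -0.39 (-0.65 to -0.13), against 0.23 for Sesn2. Trib1 was at -0.02 (-0.08 to 0.04) and Trib2 at 0.31 (0.25 to 0.38), against 0.86 for Trib3. Chac2, with 313 counts with shcircCsnk1g3 and 340 with shCTR, was at -0.01 (-0.24 to 0.21). Ddit4l had 1 count in each library and was not compared. The median over the 6 paralogs compared was -0.02, and scaling by total counts alone turned it to 0.01.

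Relatives of the transcription factors spread in both directions. Of 21 ATF, CREB and C/EBP relatives listed, 17 were compared, with a median log2 fold change of 0.21, 9 intervals above 0 and 4 below, against 26.9% and 28.2% of all genes. With no count filter, and with at least 200 summed counts, that median was 0.11. Creb3l1, an ER-anchored factor with a role in collagen secretion, had 536 counts with shcircCsnk1g3 and 343 with shCTR, a log2 fold change of 0.75 (0.55 to 0.95). Atf1, a CREB relative, had 2956 and 4582 counts, which gave a log2 fold change of -0.52 (-0.59 to -0.46). The only relative at 2-fold or more was Batf2, with 16 and 7 counts and an interval from -0.06 to 2.82. Batf2 was picked out after its value was seen.

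Further known targets of ATF4 and CHOP, without the 10 genes, were mostly higher with shcircCsnk1g3. Of 30 such targets compared, the interval lay above 0 for 23, against 26.9% of all genes, and below 0 for 3, against 28.2%, and the median was 0.33. Slc6a9, a glycine transporter, had 8798 counts with shcircCsnk1g3 and 4874 with shCTR, a log2 fold change of 0.96 (0.91 to 1.01). Bcl2l11 encodes the death protein BIM, which CHOP is known to induce, and had 1194 and 1932 counts, and the log2 fold change was -0.59 (-0.69 to -0.48). The genes with an interval below 0 besides Bcl2l11 were Tnfrsf10b, a death receptor, at -0.38 (-0.47 to -0.29), and Jmjd6, at -0.16 (-0.24 to -0.08), and both were picked out after their values were seen. Bbc3, which encodes the death protein PUMA and was picked out in the same way, stood at 0.59 (0.43 to 0.76), so the death genes of the list did not share a direction.

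Genes for amino acid supply, the main metabolic arm of the ATF4 programme, were also mostly higher with shcircCsnk1g3. Of 11 amino acid transporters compared, 10 had an interval above 0 and none below, beside the same 26.9% and 28.2% of all genes, with a median of 0.39. Their lowest value among genes with at least 200 summed counts was 0.08 (0.06 to 0.10) for Slc38a2, which encodes SNAT2. Of 17 enzymes of amino acid and one-carbon synthesis, 12 had an interval above 0 and 2 below, read against the same shares, with a median of 0.30. Gpt2, the mitochondrial alanine transaminase, was at 0.81 (0.77 to 0.85), and Mthfd1, the cytosolic folate enzyme, at -0.21 (-0.27 to -0.16). The other enzyme below 0 was Cbs, picked out after its value was seen, at -1.41 (-2.19 to -0.81) on 25 and 75 counts. Of 20 cytosolic tRNA synthetases, 12 had an interval above 0 and 4 below, read against those shares too, with a median of 0.10 and a span from -0.22 (-0.25 to -0.18) for Kars to 0.33 (0.29 to 0.37) for Cars.

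Over these 4 lists together, with genes on more than 1 list counted once and the 10 genes left out, 74 genes were compared. Of them, 53 had an interval above 0, against 26.9% of all genes, and 9 had one below, against 28.2%. At 1.5-fold or more, 10 were higher and 2 lower, against 5.39% and 6.31% of all genes. None was 2-fold higher, against 2.13%, while Cbs was more than 2-fold lower, against 2.55%. Their median log2 fold change was 0.27, beside 0.36 for the 10 genes and 0.00 for all genes. The lists were written with earlier results of these libraries known and some hold genes that respond to other signals too, so their counts describe the libraries and are not independent evidence of a direction.

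The ER chaperones and other genes of the unfolded protein response, which share the PERK input with the integrated stress response but are driven mainly by ATF6 and XBP1, stood the other way. Of 20 such genes, 18 had an interval below 0, against 28.2% of all genes, and 2 above, against 26.9%, with a median of -0.30. Sdf2l1, an ER-resident chaperone partner, had 677 counts with shcircCsnk1g3 and 1305 with shCTR, a log2 fold change of -0.84 (-0.98 to -0.70). The genes above 0 were Herpud1, which is also an ATF4 target and serves ER-associated degradation, at 0.25 (0.22 to 0.29), and Dnajb9, an ER co-chaperone picked out after its value was seen, at 0.15 (0.01 to 0.28). Higher Ddit3, Atf3 and Trib3 were thus found in the library in which most chaperone genes of the list were lower.

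**Figure D4:**
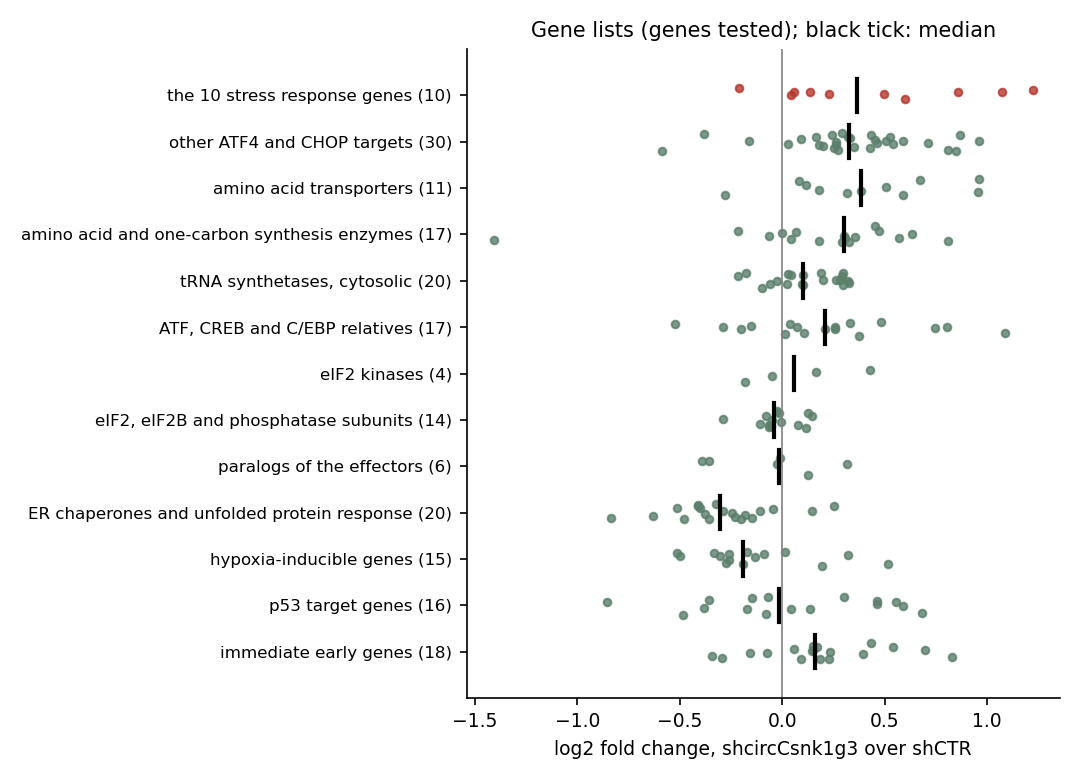
Log2 fold change, shcircCsnk1g3 over shCTR, of each gene compared in each list (points), with the list median as a black tick and the number of genes compared in brackets. The 10 stress response genes are in red on top, the lists linked to ATF4 have medians from 0.10 to 0.39, and the ER chaperone list has a median of -0.30 with 2 genes to the right of 0.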

How the data were processed

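Poly(A) RNA of 1 shcircCsnk1g3 and 1 shCTR library was sequenced on a NovaSeq. Reads were aligned with STAR to GRCm38 and estimated per gene with RSEM, and the authors deposited these counts as whole numbers. A table of TMM-scaled CPM, which the authors deposited for 11624 genes, served as an alternative. Here, counts of genes that reached 10 in either library were scaled with TMM (edgeR 4.0.16, R 4.3.3), and log2 fold changes used a prior count of 2. With 1 library per group no test was run, and intervals are 95% exact intervals of the ratio of counts, or log-normal ones for a ratio of ratios. At 10 counts per library the half-width is 1.42 on the log2 scale, and at 100 it is 0.41. The floor was 3 counts. The 92 spike-in rows, all 0, were left out, and the value of 1 marker gene is not reported here.

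The 10 genes and all lists were chosen with earlier results of these data known. Besides the 10, the genes named were the kinases, paralogs and checks of the labels, and in each list the highest and lowest value among genes with at least 200 summed counts. Also named were the 3 genes nearest the median of the 10, markers at the floor and genes that overlap the 10, and genes said to be picked out were chosen after their values were seen. Coordinates and exon lengths came from GENCODE M21, which held 25251 of the 25509 gene identifiers, while the release the authors used is not given in the sources used here. Transcripts alike over at least 100 bases at 90% identity were sought with blastn 2.17.0, and Tmem189 was the only gene found for any of the 10. Scripts ran in python 3.11.15 (scipy 1.17.1, pandas 2.3.3, numpy 2.4.6), with figures in matplotlib 3.10.9, and the steps were tested on simulated counts. The 7 alternatives were DESeq2 1.42.0 size factors, total counts, the deposited CPM table, prior counts of 0.5 and 10, no count filter, and at least 200 summed counts.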

Additional observations from a re-analysis of the deposited data

How the results depend on the processing

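Under the 7 alternatives, 69 of 70 values of the 10 genes stayed within their counting interval and 0 changed sign. The exception was Atf4 with total counts only, at 0.09, where the median of all genes was 0.03. In all 7, 2 of the 10 genes were at least 2-fold higher and 4 at least 1.5-fold higher. Under each of them 9 had an interval above 0, and the median over the 10 genes ran from 0.36 to 0.39. No count filter and at least 200 summed counts only change which genes are compared, so they could not move values of the 10 genes. Intervals are those of the ratio of counts, so a changed prior count could not move the interval count. Agreement that a setting could not break is no evidence of stability. The number of genes at least 2-fold higher, 275, became 107 with the deposited table, 150 with a prior count of 10, 732 with no count filter and 60 with at least 200 summed counts. The number at least 2-fold lower, 330, became 168, 171, 623 and 79 in the same order. The median of the ATF, CREB and C/EBP relatives went from 0.21 to 0.11 with no count filter and with at least 200 summed counts, and that of the eIF2 kinases from 0.06 to 0.09 with total counts only. The settings that moved the 2-fold counts keep other genes or shrink low counts by construction. Among genes with at least 200 summed counts, 0.563% were at least 2-fold higher and 1.99% at least 1.5-fold higher. No paired analysis was possible because each condition had 1 library, and for the same reason no library could be left out. Variation between cultures, hairpin designs and preparations was not measured.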

Other observations

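Programmes that share inducers with the 10 stress response genes were mixed. Over all genes compared, 26.9% had a counting interval above 0 and 28.2% one below. Of 18 immediate early genes, to which Atf3 is close in its induction by growth factors, 10 had a counting interval above 0 and 4 below, with a median log2 fold change of 0.16. The highest was Egr2, an early growth response factor, at 0.83 (0.51 to 1.17) on 209 and 126 counts, and the lowest Dusp1, a phosphatase of MAP kinases, at -0.34 (-0.44 to -0.24). Of 15 hypoxia-inducible genes, a setting in which Ddit4 is also induced, 10 had an interval below 0 and 3 above, with a median of -0.19. Vegfa, the angiogenic factor that ATF4 can also induce, was the highest at 0.52 (0.48 to 0.56), and Egln3, a prolyl hydroxylase of HIF, the lowest at -0.52 (-0.61 to -0.42). Of 16 p53 target genes, 7 had an interval above 0 and 6 below, with a median of -0.01, which total-count scaling turned to 0.02. The highest was Btg2, an antiproliferative gene, at 0.68 (0.39 to 0.99), and the lowest Gtse1, at -0.85 (-0.95 to -0.76) on 1308 and 2550 counts.

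The 3 genes outside these lists whose log2 fold change was nearest the median of the 10 genes, by absolute difference over the 2 libraries, were Pde1b, Polk and Efna5. Each was at 0.36, with 1773 and 1485 counts for Pde1b, 1484 and 1242 for Polk and 513 and 429 for Efna5. With 1 library per condition this likeness is a single number per gene, and many genes have a similar value.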
